A study of Mus musculus with 14 samples.

Results

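Steroid hormones reach the liver from the adrenal gland and the gonads, and the liver is the main site where they are inactivated, reactivated and conjugated for excretion. The genes described here are 9 genes of this system in mouse liver: Cyp17a1, Hsd3b2, Hsd3b5, Hsd17b2, Hsd11b1, Srd5a1, Akr1c6, Akr1c18 and Esr1. They were taken by name, and each is read from the brightest (highest mean) of the probes that carry 1 gene name. Cyp17a1 was picked on its large fall against wild type, a measured value of these arrays, so its levels against wild type are given as a description with no test. No probe carried the name Srd5a1, and this gene, which encodes steroid 5-alpha-reductase 1, was not analysed here. The other 8 genes were measured, out of 19938 genes tested in all.

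The tissue was tumor-free liver from female mice aged 14 months, 1 Affymetrix mouse gene array per sample and 14 arrays in all. Of these, 6 arrays came from Mdr2-KO/IL6-KO mice, which lack both Mdr2 and interleukin 6, 5 came from Mdr2-KO mice, which lack Mdr2 alone, and 3 came from wild type C57BL/6 mice. Mdr2 is an alias of Abcb4, the transporter that moves phosphatidylcholine into bile, and mice without it develop chronic bile duct injury and later liver tumours. The labels name a strain for wild type only, so strain and loss of the targeted genes cannot be told apart in any comparison with wild type. They do not say whether each array is a separate mouse, so the p-values speak of the spread among arrays, which may be technical. The 2 comparisons with wild type share its 3 arrays.

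Values are the deposited log2 expression values, and a difference of 1 is a doubling. Means are given with their SD (n = 6 for Mdr2-KO/IL6-KO, n = 5 for Mdr2-KO and n = 3 for wild type), and differences with their standard error (SE) or 95% interval. Differences were tested in limma with Benjamini-Hochberg adjustment over all 19938 genes, and a gene was called at an adjusted p under 0.05. The 95% intervals are not adjusted, so an interval can leave out 0 where the adjusted p does not pass. Probes differ in how brightly they bind, so no gene's level is set against another gene's. A value under 5.48, the level below which 95% of 1027 olfactory receptor genes lie, is called under the background of the array. Precision rests on having 3 to 6 arrays in a group.

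Abcb4 read 9.05 ± 0.20 in Mdr2-KO/IL6-KO, 9.01 ± 0.19 in Mdr2-KO and 10.36 ± 0.03 in wild type, so both knockout labels match its signal. Il6 was under the background in all 3 groups and could not check the second knockout. Hepatocyte markers were bright and even: none of the 6 measured was called in any comparison by limma, and none had an unadjusted p under 0.05. Of all 19938 genes 1388 were called higher in Mdr2-KO/IL6-KO and 1772 in Mdr2-KO against wild type. Markers of bile duct cells were called higher in 4 of 6 in Mdr2-KO/IL6-KO and in 3 of 6 in Mdr2-KO against wild type. The log2 of their summed signal was 9.31 to 10.09 in Mdr2-KO/IL6-KO, 9.31 to 9.99 in Mdr2-KO and 8.80 to 9.09 in wild type. Stellate cell markers were called higher in 4 of 8 and 3 of 8, and macrophage markers in 3 of 8 both times. The summed signals of these lists overlapped wild type in both knockouts. For stellate cells they were 12.09 to 12.50 in Mdr2-KO/IL6-KO, 11.80 to 12.37 in Mdr2-KO and 11.99 to 12.11 in wild type. For macrophages they were 11.96 to 12.68, 11.79 to 12.31 and 11.85 to 12.13 in the same order. The part of these cell types in the results below was not tested, and in whole tissue fewer cells of a type and less RNA per cell cannot be told apart. Mdr2-KO array 3 stood apart, with the lowest mean correlation to its own group (0.9897 across genes, against 0.9908 to 0.9940 for the other arrays). Calls of the 8 genes that ended without it, and the Cyp17a1 and Esr1 differences that involve it, are given with and without it.

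Steroid synthesis and breakdown run through a few enzyme families. Cytochromes P450 hydroxylate or cleave the steroid carbon skeleton, and hydroxysteroid dehydrogenases interconvert hydroxyl and keto groups, which switches a hormone between active and inactive forms. Reductases of the aldo-keto family and the 5-alpha type saturate or reduce the ring system, and sulfation or glucuronidation makes the product soluble. The hormones act through nuclear receptors such as the estrogen receptor alpha and the glucocorticoid receptor, and in rodent liver the pattern of growth hormone secretion makes many of these enzymes differ between females and males.

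Cyp17a1, a hydroxylase and lyase of the steroid skeleton, makes the precursors of androgens in adrenal and gonad and is also expressed in mouse liver. Its gene lies at chr19:46667165-46673000 (GRCm38.p6). Cyp17a1 read 6.43, 7.25, 6.60, 6.56, 6.42 and 6.26 in the 6 Mdr2-KO/IL6-KO arrays (mean 6.59 ± 0.35). The 5 Mdr2-KO arrays read 8.23, 6.95, 9.54, 6.34 and 5.71 (7.35 ± 1.54). Wild type read 11.58, 10.43 and 11.48 (11.17 ± 0.64). No knockout array reached the lowest wild-type value, and all knockout arrays lay above the background. The mean difference from wild type was -4.58 for Mdr2-KO/IL6-KO, a signal 23.9 times lower, and -3.81 for Mdr2-KO, 14.1 times lower.

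The Cyp17a1 signal spread widely within Mdr2-KO, with array 3 nearest to wild type and array 5 close to the background. Without array 3 the Mdr2-KO mean was 6.81 ± 1.07 (n = 4, 5.71 to 8.23), 20.5 times lower than wild type. Leaving out the highest array of the group necessarily enlarges the fall. Between the knockouts the difference for Cyp17a1 was -0.77 (SE 0.51, 95% interval -1.85 to 0.31, limma adjusted p = 0.322), and the groups overlapped. Without Mdr2-KO array 3 it was -0.22 (95% interval -1.02 to 0.58, adjusted p = 0.742). These intervals leave room for a difference in either direction.

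Of 9 marker genes of adrenal cortex and gonads 7 were measured and 3 of them had a mean above the background, Star, Cyp11b2 and Nr5a1. Star, which carries cholesterol into mitochondria for steroid synthesis, was the only one called. It read 5.59 ± 0.12 in Mdr2-KO/IL6-KO, 5.53 ± 0.12 in Mdr2-KO and 5.84 ± 0.05 in wild type, and was lower in Mdr2-KO than in wild type with no overlap (-0.31, adjusted p = 0.0191), a call that ended without wild type array 1 or 3 (adjusted p up to 0.0793). In Mdr2-KO/IL6-KO Star differed by -0.25 from wild type (adjusted p = 0.0607). Nr5a1, a nuclear receptor of steroid-producing cells, read 6.35 ± 0.08, 6.19 ± 0.17 and 6.40 ± 0.23 in Mdr2-KO/IL6-KO, Mdr2-KO and wild type, and no comparison passed. Cyp11a1, the side-chain cleavage enzyme that starts steroid synthesis, read 4.51 ± 0.15 in Mdr2-KO/IL6-KO, 4.22 ± 0.18 in Mdr2-KO and 4.42 ± 0.15 in wild type. Mc2r, the corticotropin receptor of the adrenal cortex, was likewise under the background on all arrays. The log2 of the list's summed signal was 8.04 to 8.16 in Mdr2-KO/IL6-KO, 7.82 to 8.11 in Mdr2-KO and 8.05 to 8.27 in wild type.

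**Figure D1:**
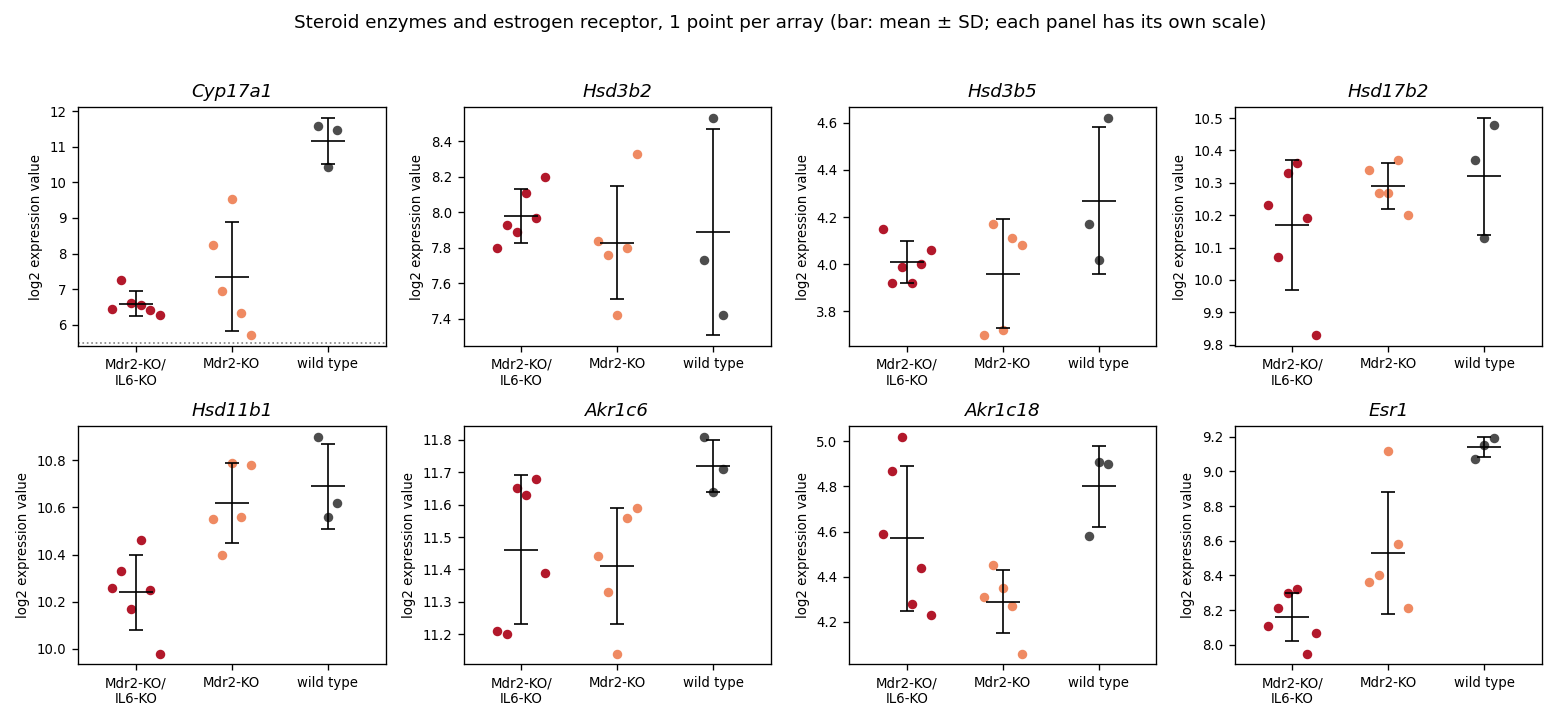
Log2 expression values of the 8 measured genes, 1 point per array, with Mdr2-KO/IL6-KO, Mdr2-KO and wild type from left to right; the bar marks the mean and the whiskers 1 SD, and each panel has its own axis. The dotted line in the Cyp17a1 panel is the background at 5.48, which also lies above every point of Hsd3b5 and Akr1c18. All knockout arrays of Cyp17a1, which was picked on its fall against wild type, lie below wild type, and in Esr1 all Mdr2-KO/IL6-KO arrays lie below wild type while Mdr2-KO array 3 reaches it.

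Esr1 encodes estrogen receptor alpha, the main estrogen receptor of hepatocytes. Esr1 read 8.11, 8.21, 8.30, 8.32, 7.95 and 8.07 in Mdr2-KO/IL6-KO (8.16 ± 0.14), against 9.07, 9.15 and 9.19 in wild type (9.14 ± 0.06). The groups did not overlap, and the signal was 1.97 times lower in Mdr2-KO/IL6-KO (log2 fold change of -0.98 with an SE of 0.15, limma adjusted p = 0.000578). The Mdr2-KO arrays read 8.36, 8.40, 9.12, 8.58 and 8.21 (8.53 ± 0.35). Only array 3 reached into the wild-type range. The Mdr2-KO mean was 1.52 times lower than wild type (-0.60, SE 0.15, adjusted p = 0.0125).

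The call of Esr1 in Mdr2-KO ended without wild type array 3 (-0.58, adjusted p = 0.0534), and without Mdr2-KO array 3 the difference was -0.75 (adjusted p = 0.000235). That array had the highest Esr1 value of its group, so leaving it out necessarily enlarges the fall and is no independent support. In Mdr2-KO/IL6-KO the call against wild type was kept in all 21 alternative settings run. Between the knockouts Esr1 differed by -0.37 (SE 0.13, 95% interval -0.64 to -0.11) and did not pass after adjustment (unadjusted p = 0.00928, adjusted p = 0.0715). It passed without Mdr2-KO array 5 (-0.45, adjusted p = 0.0361), and without Mdr2-KO array 3 it was -0.23 (adjusted p = 0.122).

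The RefSeq table (GRCm38.p6) holds 2 promoter windows for Esr1, whose gene lies at chr10:4611989-5005633. They are shown because Esr1 was called in both comparisons with wild type, and because the upstream 250 bases of its downstream start hold the only match found among the members' windows. The capitals mark that match.
Esr1 upstream start, chr10:4611739-4611988, plus strand: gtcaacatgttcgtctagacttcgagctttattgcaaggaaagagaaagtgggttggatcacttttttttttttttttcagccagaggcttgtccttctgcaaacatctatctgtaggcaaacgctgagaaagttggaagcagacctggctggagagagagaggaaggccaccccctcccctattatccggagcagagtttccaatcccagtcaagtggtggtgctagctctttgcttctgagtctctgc
Esr1 downstream start, chr10:4709908-4710157, plus strand: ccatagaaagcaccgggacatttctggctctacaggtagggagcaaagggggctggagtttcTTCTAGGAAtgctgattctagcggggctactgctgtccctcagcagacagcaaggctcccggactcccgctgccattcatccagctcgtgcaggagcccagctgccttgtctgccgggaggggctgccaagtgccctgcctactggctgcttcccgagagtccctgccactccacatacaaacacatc
The searched letters, on both strands, were TTCNNNGAA, which STAT5 and BCL6 bind, the nuclear receptor motif AGGTCA, the NR5A site CAAGGTCA, which contains AGGTCA, and the HNF1 motif GTTAAT. They occur in 7.02%, 14.0%, 1.33% and 6.43% of 32841 promoter windows of 250 bases. The match in the downstream Esr1 window begins at position -188 from the start. The table had windows for 7 of the 9 genes, 8 in all, and the other 7 windows held none of the 4 motifs. A match describes the letters and is not a binding site, and no match says only that these letters are not in that window.

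Hsd11b1, 11-beta-hydroxysteroid dehydrogenase type 1, regenerates active glucocorticoid from its inactive keto form and is highly expressed in hepatocytes. Hsd11b1 read 10.26, 10.33, 10.17, 10.46, 10.25 and 9.98 in Mdr2-KO/IL6-KO (10.24 ± 0.16). The Mdr2-KO arrays read 10.55, 10.40, 10.79, 10.56 and 10.78 (10.62 ± 0.17), and wild type read 10.90, 10.56 and 10.62 (10.69 ± 0.18). All Mdr2-KO/IL6-KO arrays lay below wild type, and only array 4 reached into the Mdr2-KO range. Hsd11b1 was 1.37 times lower in Mdr2-KO/IL6-KO than in wild type (a log2 difference of -0.45, SE 0.11, adjusted p = 0.0140), a call that ended without wild type array 1 (-0.35, adjusted p = 0.0937).

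Against Mdr2-KO, Hsd11b1 was 1.30 times lower in Mdr2-KO/IL6-KO (a log2 difference of -0.38, SE 0.09, adjusted p = 0.0253). This call ended without Mdr2-KO array 1 (-0.39, adjusted p = 0.0504) or array 3 (-0.33, adjusted p = 0.0655). Mdr2-KO and wild type overlapped, with a difference of -0.07 (95% interval -0.32 to 0.17, adjusted p = 0.654). The promoter window of Hsd11b1, shown because this gene was called between the knockouts, begins inside the annotated gene (chr1:193221640-193264045) and holds none of the motifs.
Hsd11b1, chr1:193242361-193242610, minus strand: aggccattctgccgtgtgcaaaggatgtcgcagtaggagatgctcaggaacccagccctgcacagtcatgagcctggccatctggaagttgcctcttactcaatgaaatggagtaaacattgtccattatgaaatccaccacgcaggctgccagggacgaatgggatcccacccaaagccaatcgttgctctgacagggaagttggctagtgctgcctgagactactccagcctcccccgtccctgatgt

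Akr1c6 encodes a liver aldo-keto reductase that converts keto steroids such as androstenedione to their hydroxyl forms (chr13:4434311-4457530). Akr1c6 read 11.21, 11.20, 11.65, 11.63, 11.68 and 11.39 in Mdr2-KO/IL6-KO (11.46 ± 0.23), 11.44, 11.33, 11.14, 11.56 and 11.59 in Mdr2-KO (11.41 ± 0.18), and 11.81, 11.64 and 11.71 in wild type (11.72 ± 0.08). All Mdr2-KO arrays lay below wild type, while 2 Mdr2-KO/IL6-KO arrays reached its lowest values. Neither difference passed the test, at -0.31 for Mdr2-KO (95% interval -0.58 to -0.04, adjusted p = 0.0906) and -0.26 for Mdr2-KO/IL6-KO (adjusted p = 0.195). The knockouts differed from each other by 0.05 (95% interval -0.18 to 0.27, adjusted p = 0.786).

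Hsd17b2, a hydroxysteroid dehydrogenase of the HSD17B series, oxidises estradiol and testosterone to their less active keto forms (chr8:117700982-117759030). Hsd17b2 read 10.23, 10.07, 10.33, 10.36, 10.19 and 9.83 in Mdr2-KO/IL6-KO (10.17 ± 0.20), 10.34, 10.27, 10.27, 10.37 and 10.20 in Mdr2-KO (10.29 ± 0.07), and 10.37, 10.13 and 10.48 in wild type (10.32 ± 0.18). The 3 groups overlapped. The differences from wild type were -0.16 for Mdr2-KO/IL6-KO (95% interval -0.38 to 0.07, adjusted p = 0.404) and -0.03 for Mdr2-KO (-0.27 to 0.20, adjusted p = 0.837), and the knockouts differed by -0.12 (-0.31 to 0.07, adjusted p = 0.378).

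Hsd3b2 is one of the 3-beta-hydroxysteroid dehydrogenases, which turn delta-5 into delta-4 steroids (chr3:98711107-98724543). Hsd3b2 read 7.80, 7.93, 7.89, 8.11, 7.97 and 8.20 in Mdr2-KO/IL6-KO (7.98 ± 0.15), 7.84, 7.76, 7.42, 7.80 and 8.33 in Mdr2-KO (7.83 ± 0.32), and 7.73, 8.53 and 7.42 in wild type (7.89 ± 0.58). Wild type alone spanned the range of both knockouts, with array 2 highest of all 14. No comparison passed, with differences from wild type of 0.09 in Mdr2-KO/IL6-KO (95% interval -0.34 to 0.52, adjusted p = 0.842), -0.06 in Mdr2-KO (-0.50 to 0.38, adjusted p = 0.850) and 0.15 between the knockouts (-0.22 to 0.52, adjusted p = 0.580).

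Hsd3b2 varied between arrays together with other genes of its family. The correlation of deviations from the group means over the 14 arrays was 0.89 for Hsd3b2 with Hsd3b3 and 0.82 with Hsd3b6. With Mdr2-KO array 3 dropped, the values were 0.87 and 0.79. That array stayed in the Mdr2-KO mean from which deviations were taken, so values given without it are not free of it. The correlation is a description across 14 arrays that share normalization. Near-identical genes of this family can share probe signal, so these are not separate readings. Hsd3b6 was under the background on all 14 arrays. In the same measure Hsd3b2 gave no single sign with 4 female-biased genes, at -0.76 with Sult3a1, -0.84 with Cyp3a16, -0.46 with A1bg and 0.57 with Cyp2b13 (-0.78, -0.82, -0.57 and 0.48 without Mdr2-KO array 3). With Cyp17a1 it was -0.67, and -0.60 without Mdr2-KO array 3. Cyp3a16 spread most in wild type (SD 3.15), against 0.28 in Mdr2-KO/IL6-KO and 0.92 in Mdr2-KO, where its means were under the background. Hsd3b2 also spread most in wild type (SD 0.58), and no correlation was computed without a wild type array. Wild type array 2, highest for Hsd3b2, was the lowest wild-type array for Cyp17a1, at 10.43, and for Sult3a1, at 6.50 against 9.45 and 9.85.

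Hsd3b5, a 3-beta-hydroxysteroid dehydrogenase of male mouse liver (chr3:98618636-98645534), was under the background on all 14 arrays of these females, at 4.01 ± 0.09 in Mdr2-KO/IL6-KO, 3.96 ± 0.23 in Mdr2-KO and 4.27 ± 0.31 in wild type. No comparison passed, with -0.27 for Mdr2-KO/IL6-KO (adjusted p = 0.208) and -0.32 for Mdr2-KO (adjusted p = 0.0957) against wild type. The second passed without wild type array 2 (-0.44, adjusted p = 0.0375). The other probes that name Hsd3b5 also name Gm10681 and Hsd3b4, and they too were under the background, at 5.11 ± 0.14, 5.03 ± 0.08 and 5.26 ± 0.01 in the same order of groups. Sizes of differences under the background are not exact.

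Akr1c18, 20-alpha-hydroxysteroid dehydrogenase, which inactivates progesterone and is best known from the ovary (chr13:4132615-4150646), was also under the background on all arrays. Akr1c18 read 4.31, 4.45, 4.35, 4.27 and 4.06 in Mdr2-KO (4.29 ± 0.14), against 4.58, 4.91 and 4.90 in wild type (4.80 ± 0.18), with no overlap. It was called lower in Mdr2-KO (-0.51, SE 0.16, adjusted p = 0.0339). The call did not hold without wild type array 2 or 3 (adjusted p = 0.0863 and 0.130), without Mdr2-KO array 1 (0.0556), 4 (0.0593) or 5 (0.0648), and with array quality weights (0.0895). In Mdr2-KO/IL6-KO the values ran between 4.23 and 5.02 (4.57 ± 0.32), with -0.22 against wild type (adjusted p = 0.409) and 0.28 against Mdr2-KO (adjusted p = 0.166).

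**Figure D2:**
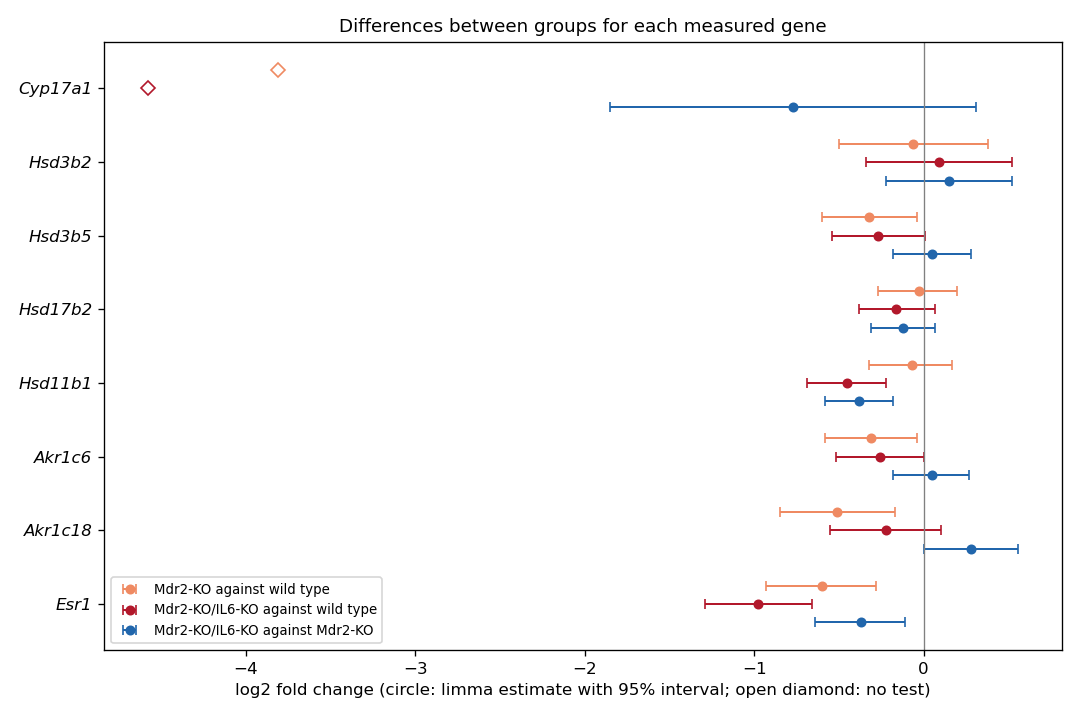
Log2 fold changes of the 8 measured genes in the 3 comparisons; circles are limma estimates with their unadjusted 95% intervals, and the open diamonds of Cyp17a1 against wild type carry no test. Esr1 and Hsd11b1 lie below 0 where Mdr2-KO/IL6-KO is set against wild type, while the intervals of Hsd3b2 and Hsd17b2 span 0 in every comparison.

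Counted together and without Cyp17a1, 2 of 7 genes were called in Mdr2-KO against wild type, Akr1c18 and Esr1, both lower. Of all genes 21.0% were called in this comparison and 12.1% were called lower. All 7 differences were negative, with a median of -0.31 where the median of all genes was -0.07. Those of Hsd17b2 (-0.03), Hsd3b2 (-0.06) and Hsd11b1 (-0.07) lay close to the median of all genes. They kept their sign in 20, 18 and 20 of 21 alternative settings. Hsd3b5 and Akr1c18 were under the background, and how many of all genes differed downward was not counted. In Mdr2-KO/IL6-KO against wild type 2 of 7 were called, Esr1 and Hsd11b1, both lower, where 12.3% of all genes were called and 5.33% were called lower. Their median was -0.26, beside -0.02 for all genes. Between Mdr2-KO/IL6-KO and Mdr2-KO 1 of the same 7 was called, Hsd11b1, lower, where 8.76% of all genes were called and 3.72% were called lower, and the median was 0.05 beside 0.06. With Cyp17a1, which was not called in this comparison, it was 1 of 8 with a median of -0.04. With so few genes these shares are read only beside the background, and the call of Akr1c18 concerns a signal under the background.

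The rest of the pathway was read from gene lists. For comparison, 1388 of all 19938 genes were called higher in Mdr2-KO/IL6-KO and 1772 in Mdr2-KO against wild type. Between the knockouts 1005 were called higher in Mdr2-KO/IL6-KO. Called lower in the same order of comparisons were 1062, 2417 and 741 genes. Of the other 3-beta-hydroxysteroid dehydrogenases 4 of 5 were measured, and Hsd3b1 alone was called, lower in Mdr2-KO/IL6-KO (-0.30, adjusted p = 0.0115) and in Mdr2-KO (-0.41, adjusted p = 0.00164) against wild type, under the background. Its call in Mdr2-KO/IL6-KO ended without wild type array 2 (-0.24, adjusted p = 0.0665). Between the knockouts none of the 4 was called by limma, and none had an unadjusted p under 0.05. Hsd3b7, which acts on bile acid precursors, read 9.96 ± 0.32, 9.97 ± 0.18 and 10.11 ± 0.38 in Mdr2-KO/IL6-KO, Mdr2-KO and wild type.

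Among 10 measured genes of the HSD17B series 1 was called higher and 1 lower in Mdr2-KO/IL6-KO than in wild type, and 1 higher and 3 lower in Mdr2-KO. The list medians were -0.01 and -0.17. Hsd17b13, a lipid droplet protein of hepatocytes, read 11.30 ± 0.18 in Mdr2-KO/IL6-KO, 11.07 ± 0.21 in Mdr2-KO and 10.47 ± 0.29 in wild type. It rose in Mdr2-KO/IL6-KO (0.83, adjusted p = 0.00106) and in Mdr2-KO (0.60, adjusted p = 0.00849), the second call ending without wild type array 3 (0.49, adjusted p = 0.0579). Hsd17b7, which also acts in cholesterol synthesis, fell by 0.54 on the log2 scale in Mdr2-KO/IL6-KO (adjusted p = 0.00532), and its call in Mdr2-KO (-0.35, adjusted p = 0.0462) was lost in 14 of 21 alternative settings, with an adjusted p of up to 0.237.

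Hsd17b10, a mitochondrial dehydrogenase, fell in Mdr2-KO against wild type (-0.41, adjusted p = 0.00169) and was higher in Mdr2-KO/IL6-KO than in Mdr2-KO (0.32, adjusted p = 0.00643). Its means were 10.74 ± 0.11 in Mdr2-KO/IL6-KO, 10.42 ± 0.06 in Mdr2-KO and 10.83 ± 0.06 in wild type, and both calls held in all 21 settings. Hsd17b12, of fatty acid elongation, fell in Mdr2-KO (-0.37, adjusted p = 0.0343), a call lost in 5 settings (adjusted p up to 0.0982). Hsd17b6, which oxidises androgen metabolites, was the other gene of the list called between the knockouts, higher in Mdr2-KO/IL6-KO (0.41, adjusted p = 0.0243). Its call was lost without Mdr2-KO array 3 (0.0527), without Mdr2-KO array 4 (0.0507) and without array 5 of Mdr2-KO/IL6-KO (0.0528).

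Of 8 measured aldo-keto and 5-alpha or 5-beta reductases, Srd5a3 was the only one called against wild type. Srd5a3, a polyprenol reductase of the 5-alpha-reductase family, read 9.18 ± 0.06 in Mdr2-KO/IL6-KO, 9.02 ± 0.09 in Mdr2-KO and 8.69 ± 0.03 in wild type (0.49, adjusted p = 0.000152, and 0.33, adjusted p = 0.00295). Both calls held in all 21 settings. Akr1c12 (-0.48, adjusted p = 0.0272) and Akr1c13 (-0.35, adjusted p = 0.0282) were lower in Mdr2-KO/IL6-KO than in Mdr2-KO, and lost their calls in 6 and 3 of 21 settings (adjusted p up to 0.0768 and 0.0742). Akr1d1, the 5-beta-reductase of bile acid and steroid breakdown, read 10.54 ± 0.20, 10.46 ± 0.14 and 10.52 ± 0.20 in Mdr2-KO/IL6-KO, Mdr2-KO and wild type.

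Redox partners pass electrons to steroid hydroxylases, and 4 of 7 were measured. In Mdr2-KO the ferredoxin Fdx1 was higher (0.30, adjusted p = 0.0204), a call that needed wild type array 3 (without it 0.23, adjusted p = 0.118), and the cytochrome b5 reductase Cyb5r3 was lower (-0.27, adjusted p = 0.0409), lost in 11 of 21 settings (adjusted p up to 0.230). In Mdr2-KO/IL6-KO the outer mitochondrial cytochrome b5, Cyb5b, was lower (-0.36, adjusted p = 0.0359), lost in 5 settings (adjusted p up to 0.176). None was called between the knockouts by limma, and 2 had an unadjusted p under 0.05.

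Steroid hydroxylation, sulfation and glucuronidation held larger changes. Of 14 measured genes 4 were called higher and 2 lower in Mdr2-KO/IL6-KO than in wild type, and 5 higher and 3 lower in Mdr2-KO. Cyp2d9, a steroid hydroxylase of male mouse liver, read 9.44 ± 0.19 in Mdr2-KO/IL6-KO, 9.39 ± 0.17 in Mdr2-KO and 7.42 ± 0.16 in wild type (2.02, adjusted p = 6.19e-08, and 1.97, adjusted p = 1.41e-07). Sult1e1, which sulfates and inactivates estrogens, read 8.50 ± 0.84, 7.78 ± 1.43 and 5.82 ± 0.77 in the same order. Its rise in Mdr2-KO/IL6-KO was 2.68 (adjusted p = 0.0128), lost without wild type array 3 (2.24, adjusted p = 0.0805), and its call in Mdr2-KO (1.96, adjusted p = 0.0481) was lost in 15 of 21 settings, with an adjusted p of up to 0.220. Sult1e1 read 10.09 in Mdr2-KO array 3 against 6.42 to 7.86 in the other Mdr2-KO arrays, and without that array the difference was 1.38 (adjusted p = 0.0665).

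Cyp7b1, the oxysterol and steroid 7-alpha-hydroxylase, fell in Mdr2-KO (-0.97, adjusted p = 0.0149), a call that needed wild type array 3 (without it -0.67, adjusted p = 0.106), and differed by -0.76 in Mdr2-KO/IL6-KO without passing (adjusted p = 0.0557). The glucuronosyltransferases of the list went both ways. Ugt2b1 read 10.05 ± 0.23 in Mdr2-KO/IL6-KO, 10.46 ± 0.19 in Mdr2-KO and 11.01 ± 0.08 in wild type, and fell in both knockouts (-0.95, adjusted p = 0.000197, and -0.55, adjusted p = 0.00918). Ugt2a3 fell by 0.52 and 0.48 on the log2 scale (adjusted p = 0.00694 and 0.0103), and Ugt2b35 rose by 0.48 and 0.85 (adjusted p = 0.0160 and 0.000384), the call of Ugt2b35 in Mdr2-KO/IL6-KO ending without wild type array 1 (0.0838) or 3 (0.0898).

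Between the knockouts 3 genes of this list were called, all lower in Mdr2-KO/IL6-KO: Ugt2b5 (-0.42, adjusted p = 0.0345), Ugt2b1 (-0.41, adjusted p = 0.0309) and Ugt2b35 (-0.37, adjusted p = 0.0378). They lost their calls in 6, 7 and 7 of 21 settings, with an adjusted p of up to 0.0921, 0.0654 and 0.0939. Genes of the Ugt2b family are alike in sequence and can share probe signal.

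Of 7 measured other steroid hormone receptors, Nr3c1, the glucocorticoid receptor, fell by 0.32 on the log2 scale in Mdr2-KO (adjusted p = 0.00971), a call kept in all 21 settings. In Mdr2-KO/IL6-KO it differed by -0.24 from wild type (adjusted p = 0.0406), a call lost in 10 settings (adjusted p up to 0.125). Nr3c2, the mineralocorticoid receptor (-0.53, adjusted p = 0.0456), and Pgrmc2, a progesterone-binding membrane protein (0.29, adjusted p = 0.0385), were called in Mdr2-KO, and lost their calls in 12 and 8 settings (adjusted p up to 0.167 and 0.165). Without Mdr2-KO array 3 they were -0.42 (adjusted p = 0.0860) and 0.28 (adjusted p = 0.0634). The estrogen receptor Esr2 and the progesterone receptor Pgr were under the background in all 3 groups. None was called between the knockouts by limma, and 1 had an unadjusted p under 0.05.

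Glucocorticoid receptor target genes were set beside Hsd11b1 and Nr3c1, and all 10 were measured. None was called in any comparison by limma. An unadjusted p under 0.05 was found for 2 of them in Mdr2-KO/IL6-KO and 1 in Mdr2-KO, each against wild type, and for 2 between the knockouts. The differences largest in size were Dusp1 at 1.13 in Mdr2-KO/IL6-KO (adjusted p = 0.118), Zbtb16 at 0.98 in Mdr2-KO (adjusted p = 0.117) and Tsc22d3 at -0.55 between the knockouts (adjusted p = 0.0822).

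Liver genes with higher expression in females than males are set beside these enzymes because steroid hydroxylases and sulfotransferases belong to them. Of 12 measured, 8 were called lower and 1 higher in Mdr2-KO/IL6-KO, and likewise 8 and 1 in Mdr2-KO, against wild type. Of all genes 5.33% and 12.1% were called lower in the same order. The list medians were -0.94 and -1.05. The sulfotransferase Sult3a1 differed by -6.00 in Mdr2-KO/IL6-KO (adjusted p = 0.000374) and -5.09 in Mdr2-KO (adjusted p = 0.00139), and read 7.06 in Mdr2-KO array 3 against 2.44 to 2.88 in the other 4 Mdr2-KO arrays. Without that array the difference in Mdr2-KO was -5.98 (adjusted p = 1.14e-05). The exact size of its difference is unknown, since both knockout means are under the background. The same array was the Mdr2-KO array nearest to wild type for Cyp17a1, at 9.54, and for Esr1, at 9.12. In Mdr2-KO/IL6-KO and Mdr2-KO, Cyp3a16 differed by -4.71 and -4.33 (adjusted p = 0.00246 and 0.00428), with both knockout means under the background. A1bg differed by -3.36 and -3.04 (adjusted p = 0.00198 and 0.00393). Cyp2b13 differed by -2.97 and -2.99 (adjusted p = 0.028 and 0.0226), calls lost in 6 and 3 of 21 settings (adjusted p up to 0.0957 and 0.0693). The member called higher was Ntrk2, a neurotrophin receptor (1.11, adjusted p = 0.00105, and 1.35, adjusted p = 0.000280). Between the knockouts none was called by limma, and none had an unadjusted p under 0.05.

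Of 13 measured male-biased liver genes 6 were called higher and 4 lower in Mdr2-KO/IL6-KO, and 5 higher and 1 lower in Mdr2-KO, against wild type, so this list did not move in 1 direction. The higher ones included the fatty acid hydroxylase Cyp4a12a (3.38, adjusted p = 0.000905, and 3.22, adjusted p = 0.00143), whose wild-type mean was under the background so that its size is not exact, and Cyp2d9, which stands in both lists. Among the lower ones in Mdr2-KO/IL6-KO was Mup3, a major urinary protein (-2.16, adjusted p = 0.0146), which did not pass without wild type array 1 (0.0546) or 3 (0.0726). Between the knockouts 4 were lower in Mdr2-KO/IL6-KO, among them the growth factor receptor Egfr (-0.91, adjusted p = 0.0152), whose call held in all 21 settings. Of the other 3, Mup3 (-1.62, adjusted p = 0.0405) and Nudt7, a peroxisomal hydrolase (-0.62, adjusted p = 0.0423), each lost its call in 11 of 21 settings (adjusted p up to 0.0871 and 0.10), and the organic anion transporter Slco1a1 (-0.48, adjusted p = 0.0361), whose mean was under the background in all 3 groups, in 8 of 20 (adjusted p up to 0.0916).

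**Figure D3:**
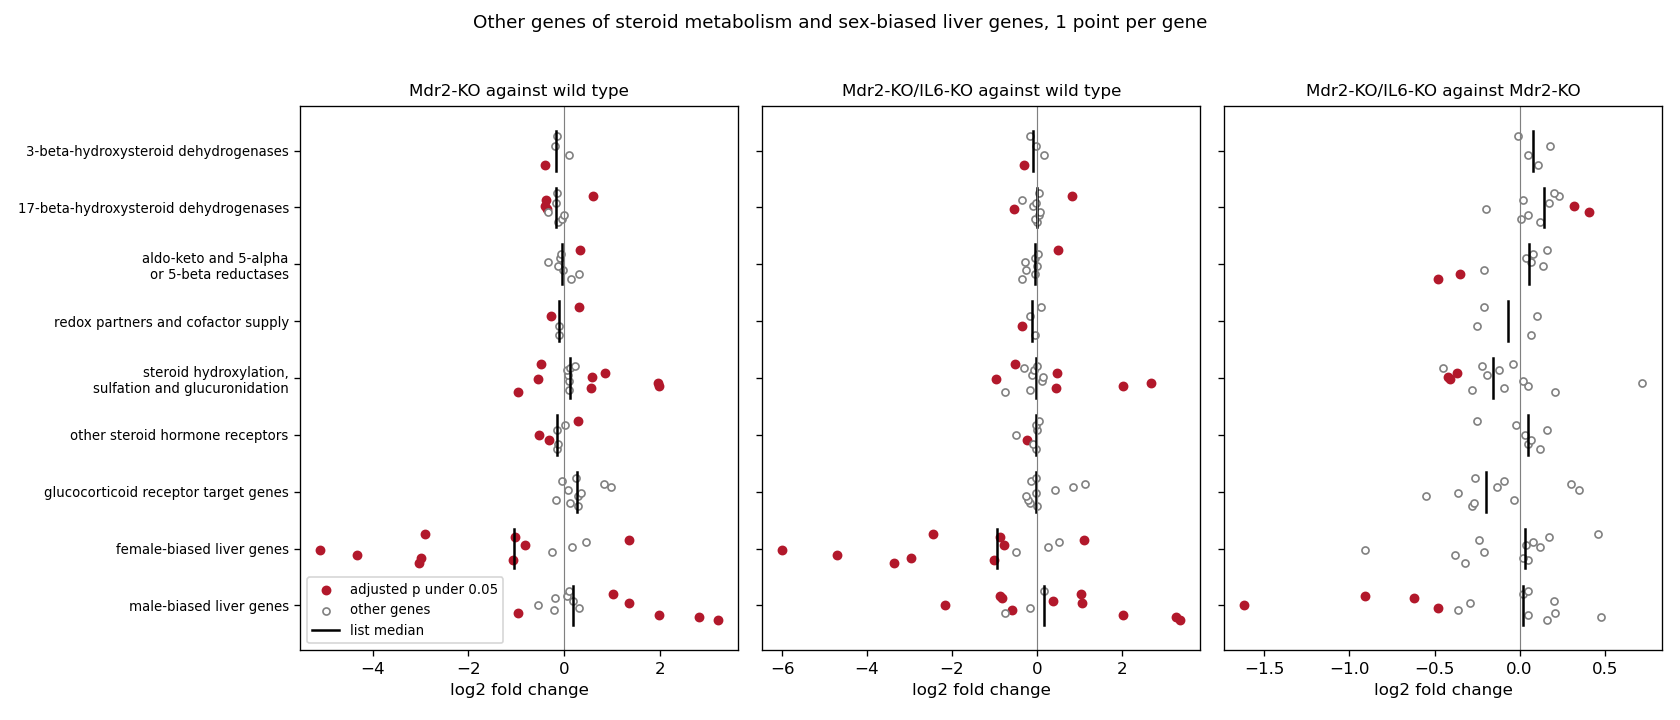
Log2 fold changes of the genes of 9 lists in the 3 comparisons, 1 point per measured gene, filled where the adjusted p is under 0.05, with a black line at each list's median; each panel has its own horizontal axis. Female-biased genes lie mostly left of 0 in both comparisons with wild type, with medians of -0.94 in Mdr2-KO/IL6-KO and -1.05 in Mdr2-KO, while the 10 glucocorticoid target genes hold no filled point.

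How the genes varied within groups was described by the correlation of deviations from the group means over the 14 arrays, which share normalization. For Cyp17a1 and Esr1 it was 0.68, and 0.32 with Mdr2-KO array 3 dropped, so its size depended on that array. Here too the dropped array stayed in the Mdr2-KO mean, so values without it still carry part of its effect. With the same 4 female-biased genes Cyp17a1 also gave no single sign, at 0.74 with Sult3a1, 0.54 with Cyp3a16, 0.01 with A1bg and -0.72 with Cyp2b13 (0.44, 0.46, 0.17 and -0.59 without that array). The genes most like Cyp17a1 were Gfra1 (0.92), a neurotrophic factor receptor, Scara5 (0.92), a ferritin receptor, and Tfr2 (0.91), a transferrin receptor of hepatocytes, at 0.85, 0.84 and 0.83 without Mdr2-KO array 3. The genes most like Esr1 were Edem1 (0.90), which acts in degradation of misfolded glycoproteins, Cnnm2 (0.90), of magnesium transport, and Slc22a7 (0.88), an organic anion transporter, at 0.83, 0.74 and 0.68 without that array. For Hsd3b5, which was under the background, the values were 0.90 for each of Lrp8os2, Nlrx1 and Ssc4d. These like genes were picked as the highest in a search over all genes but the dimmest 1 in 3. Their values are therefore no test. Mdr2-KO array 3 was included when they were picked and stayed in the group mean, so the values without it are not free of it.

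**Figure D4:**
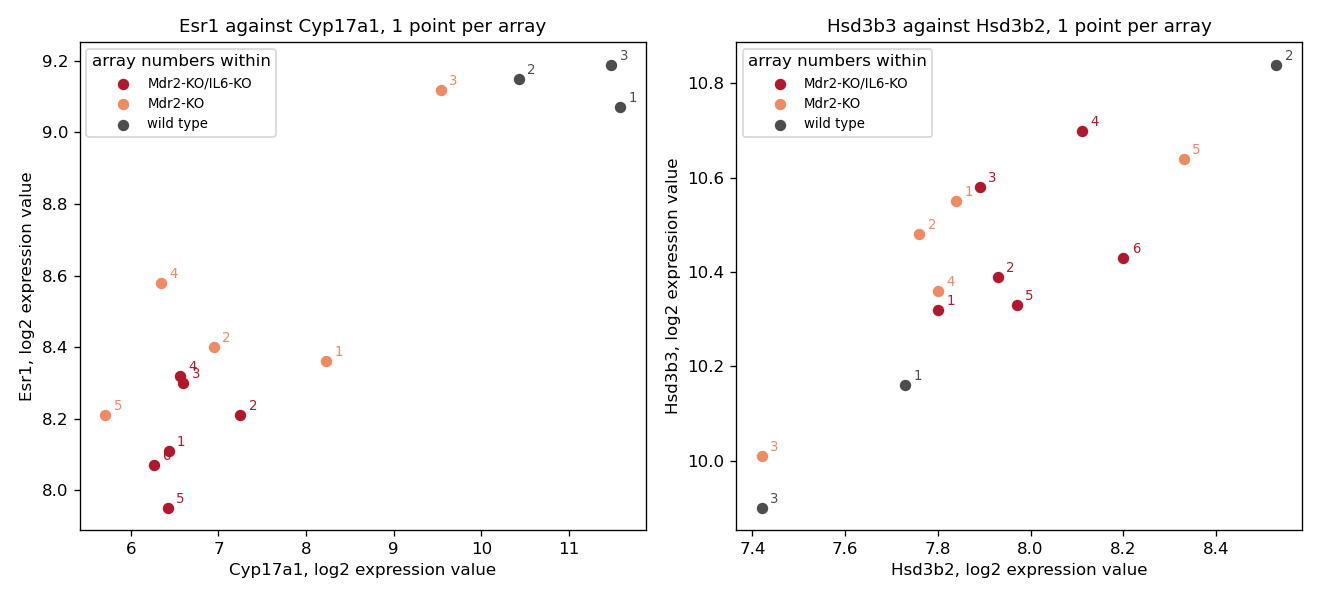
Log2 expression values of Esr1 against Cyp17a1 (left) and of Hsd3b3 against Hsd3b2 (right), 1 point per array, numbered within its group and coloured by Mdr2-KO/IL6-KO, Mdr2-KO and wild type. Mdr2-KO array 3 lies next to wild type on the left, at 9.54 for Cyp17a1 and 9.12 for Esr1, and on the right wild type array 2 is highest for both genes.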

How the data were processed

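Gene expression was measured on 14 Affymetrix mouse gene arrays, grouped by the labels. The deposited table holds log2 values per probe, for which the submitters' processing notes name Partek and RMA. RMA corrects background, normalizes quantiles and summarises probes. The labels state no batch, and tool versions and build stand as not given in the sources used here. No arrays were duplicates (0.062% equal values in the most alike pair).

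Of 35557 probes 21789 name 1 gene, 1621 several and 12147 none. Symbols were updated through gene identifiers for 21698 probes, and each of 19938 genes was taken at its single-gene probe of highest mean, with no filter. Genes were fitted in limma 3.58.1 (R 4.3.3) with 3 group means over 14 arrays and 2-sided moderated tests; the fit was first tested on simulated data where the answer was known. Tables and plots used Python 3.11.15, pandas 2.3.3 and matplotlib 3.10.9. Positions and promoters are RefSeq GRCm38.p6.

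The rule named the members, Abcb4 and Il6, up to 4 called genes per list and comparison or else the largest, and the 3 genes most like Cyp17a1, Hsd3b5 and Esr1. Hsd3b7, Akr1d1, Esr2, Pgr, Cyp11a1, Mc2r, Star, Cyp11b2, Nr5a1 and Ntrk2 were added after their values were seen, as were the pairs of genes correlated. Cyp4a12b and C6, also named by the rule, are not described. Members and lists were chosen with earlier results of these data known. Alternatives were 2 normalizations, a filter on dim genes, the mean of a gene's probes, trend and robust moderation, array weights, only the 2 groups compared, and each array left out in turn.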

Additional observations from a re-analysis of the deposited data

Results flagged for a closer look

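Of 94 gene and group pairs tested for a single far array in groups of 5 or 6, 7 had one, and chance gives about 1 in 20. Cyp17a1 read 7.25 in Mdr2-KO/IL6-KO array 2, high beside a next value of 6.60. The same array was low for Hsd17b12, at 9.06 beside 9.44, and for Ugt2b5, at 10.32 beside 10.78. Mdr2-KO array 3 was high for Sult3a1, at 7.06 beside 2.88, and for Mup3, at 11.12 beside 10.77. Cyb5r3 was low in Mdr2-KO array 4, at 11.48 beside 11.61, and Cyp2b13 was high in Mdr2-KO/IL6-KO array 4, at 9.79 beside 7.31.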

How the results depend on the processing

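Of the 7 members counted against wild type in Mdr2-KO, 2 were called, and 1 without the dimmest 1 in 3 genes or with array quality weights; the dim filter leaves out Akr1c18. With each array left out in turn the number ran from 0 (without wild type array 3) to 2, and the genes called from 2140 to 4507, beside 4189 with all arrays. In Mdr2-KO/IL6-KO against wild type, members called ran from 1 to 2 and genes from 1635 to 2544, and between the knockouts members from 0 to 2 and genes from 754 (without Mdr2-KO array 1) to 2164, beside 1746. Centring each array on its median gave 692 higher and 763 lower genes between the knockouts, against 1005 and 741. No call of a member changed direction in any setting. The cause of these changes was not tested. Signal limits Hsd3b5 and Akr1c18, whose values lie under the background, as do 29.0% of genes. No paired analysis was run because the labels state no pairing of arrays between groups. The labels of the knockout arrays also carry no replicate numbers.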
